A study of Mus musculus with 10 samples.

Results

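Short m6A peaks at the 5' ends of genes made up 961 of the 21195 peaks mapped in cultured mouse hypothalamic neural progenitor cells. The mark, N6-methyladenosine (m6A), is a methylated adenosine inside messenger RNA, and a peak is an interval in which an m6A antibody (immunoprecipitation, IP) enriched RNA fragments over unselected input RNA. A peak was included if it spanned at most 1000 bases, overlapped exactly 1 RefSeq gene span on the mouse build GRCm38, that gene was protein-coding, and the peak's midpoint lay in the first 10% of the span, read along the peak's own strand. Per the labels, progenitors were isolated from the hypothalamus of Mettl14 f/f embryos at day 14.5 and grown with FGF2 and EGF, each at 20 ng/ml. Lentivirus with EGFP-Cre, which removes the floxed part of Mettl14, made the knockout cells, and lentivirus with EGFP only made the controls, which carry the same floxed alleles. EGFP-positive cells were sorted after 72 hours, and their poly(A) RNA was cut to about 80 nt before the IP. The labels list 4 IP libraries and 1 input library of the Mettl14 knockout, and 4 IP libraries and 1 input library of the control. The deposited values were 1 column of IP reads and 1 column of input reads per peak, with no library or genotype named, so the knockout could not be set against the control, no SD between replicates exists, and no test was made.

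METTL14 and METTL3 form the core of the enzyme that writes m6A while messenger RNA is made. In mammals most of the mark lies near stop codons and in long internal exons, within a short consensus of which GGACT is a common form. The 5' end of a transcript is a special case. There the adenosine next to the cap can carry m6Am, a form with methyl groups on the base and the ribose, which is written by another enzyme (PCIF1) and which m6A antibodies also bind. Methylation of the 5' untranslated region has been tied to translation that does not depend on the cap-binding complex, among others for heat shock transcripts.

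Transcript starts are shown for the 10 peaks with the highest log2 fold change of IP over input, among those that overlap the first 50 bases of a transcript. If the listed start is the one in use, m6Am could occupy the letter next to the cap. Any GGAC that A, C or T follows is a place that m6A could occupy. Which starts these cells use was not tested. Each line gives 30 bases before and the first 30 bases of the transcript, 5' to 3', from the RefSeq start table on GRCm38.p6. Capitals mark the first base of the transcript and, after it, any GGAC with the A, C or T that follows. Irx3, Spp1 and Pcbp1 were added after their values were seen, Irx3 for its motifs and the others for their many reads. Some peaks, such as those of Zfp804b, Gphn, Olfr1318, Syt11, Irx3 and Pcbp1, begin upstream of the listed start. Their RNA may therefore begin before the capital letter. In Rnd3, Kbtbd3, B3gnt2 and Spp1 the peak lies downstream of the first base and does not reach it.
Rnd3, chr2:51149082-51149141, minus strand: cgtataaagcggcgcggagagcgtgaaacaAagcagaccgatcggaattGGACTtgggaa
LOC102637806, chr1:89932045-89932104, plus strand: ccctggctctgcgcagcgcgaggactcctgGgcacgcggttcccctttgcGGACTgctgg
Irx3, chr8:91801625-91801684, minus strand: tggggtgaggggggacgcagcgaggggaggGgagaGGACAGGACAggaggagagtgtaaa
Zfp804b, chr5:7344349-7344408, minus strand: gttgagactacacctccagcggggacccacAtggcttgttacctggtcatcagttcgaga
Gphn, chr12:78226625-78226684, plus strand: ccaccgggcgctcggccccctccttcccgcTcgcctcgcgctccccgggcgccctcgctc
Olfr1318, chr2:112155868-112155927, plus strand: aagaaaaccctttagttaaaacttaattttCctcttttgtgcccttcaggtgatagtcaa
Kbtbd3, chr9:4309786-4309845, plus strand: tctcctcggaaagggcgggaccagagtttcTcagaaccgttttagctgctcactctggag
Syt11, chr3:88772570-88772629, minus strand: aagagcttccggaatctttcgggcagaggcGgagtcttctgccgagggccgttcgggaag
Pcdh17, chr14:84443533-84443592, plus strand: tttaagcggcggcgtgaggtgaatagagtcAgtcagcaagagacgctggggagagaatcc
Usp29, chr7:6730553-6730612, plus strand: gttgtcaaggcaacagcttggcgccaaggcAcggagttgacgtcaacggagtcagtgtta
B3gnt2, chr11:22859706-22859765, minus strand: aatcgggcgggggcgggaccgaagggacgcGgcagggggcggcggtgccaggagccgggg
Spp1, chr5:104435081-104435140, plus strand: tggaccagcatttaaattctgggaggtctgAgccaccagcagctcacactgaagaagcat
Pcbp1, chr6:86526160-86526219, minus strand: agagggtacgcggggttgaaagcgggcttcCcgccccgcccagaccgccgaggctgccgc

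The 961 peaks lay in 842 of 21900 protein-coding genes (3.84%), with 493 peaks on the plus strand and 468 on the minus strand. They held 2.82 M IP and 1.10 M input reads, with a median of 665 IP and 342 input reads per peak, and ranged from 31 to 155979 IP reads and from 5 to 100296 input reads. None had 3 or fewer input reads. Widths ran from 75 to 1000 bases with a median of 220, and 79.6% were multiples of 25 bases. The 4 peaks next to the width limit were 1000 bases wide in Erc1 and Pbdc1, inside it, and 1013 bases wide in Shc4 and Prkar1a, outside it. Next to the limit on position, Mid1ip1 and Cant1 lay at 9.88% and 9.87% of their spans and Hnrnpu and Zfp282 just beyond 10% (10.01% and 10.02%). A RefSeq table of gene starts gave a strand and at least 1 start for the genes of 773 of the 961 peaks. For the other 188 the gene is not in that table and its strand was not checked.

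The label of 5' end did not hold for all of them. In 695 of the 773 peaks the strand of the peak was the strand of the gene. In 78 peaks (10.1%, exact 95% interval 8.06 to 12.4%) it was the opposite one, so that these peaks lay at the annotated 3' end of the gene whose span they overlapped. Among short peaks of the last 10% of the span the opposite-strand share was 1.75% (1.34 to 2.25%), as 61 of 3478 peaks. The share was 11.7% (7.93 to 16.5%) in the second step of 10% along the span and 10.9% (7.12 to 15.8%) in the third, and below 4% in each step beyond the middle of the span. The intervals of the first and last steps did not overlap. They take peaks as units and cover counting error only. In number the opposite-strand peaks of these steps were closer, at 78 and 61, out of 773 and 3478 peaks with a listed gene strand.

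**Figure D1:**
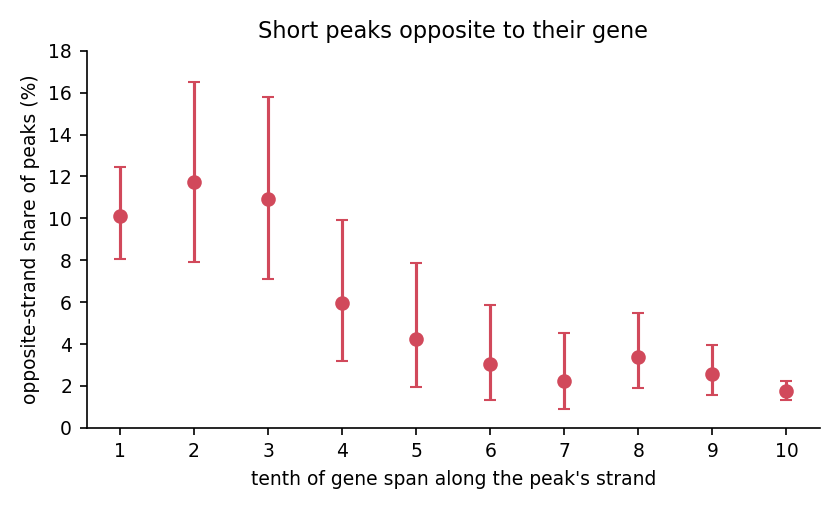
Share of short peaks whose strand is opposite to that of the gene they overlap (y axis, percent of peaks with a listed gene strand), by position in the gene span, in steps of 10% along the peak's strand (x axis). Points are shares and bars are exact 95% binomial intervals. The share is 10.1% in the first step, where the peaks described here lie, and 1.75% in the last.

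A peak on the other strand overlapped 70 of the 78 opposite-strand peaks, against 39 of the 695 peaks on the strand of their gene. These shares are not like for like, because the opposite-strand peaks lie at annotated 3' ends. Short peaks were more frequent in the last 10% of spans, with 4333, than in the first, with 961. In these 70 overlaps the opposite-strand peak had a median of 833 IP reads and the peak facing it 1406, and the opposite-strand peak had the more IP reads in 29. In 14 of the 70 its IP reads were under 10% of those of the facing peak. What part reads assigned to the wrong strand play was not tested. For 17 of the 78, other peaks with the same deposited gene identifier lay in another gene, and in 15 of these that other gene ran on the strand of the peak. For 51 of the 78 the identifier had no other peak placed in 1 coding gene, so they could not show this. Among the 695 peaks on the strand of their gene, 14 shared their identifier with peaks in another gene. The peak in the span of Riox2, for example, shared its identifier with peaks in Crybg3, the one in Cir1 with peaks in Sp9, the one in Mical1 with peaks in Smpd2 and the one in Naa35 with peaks in Golm1. Such peaks are named below by the span they overlap, with the strand stated.

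The largest opposite-strand peak lay in the span of Rmdn3 (chromosome 2, 119136971 to 119137145, plus strand), with 67898 IP and 14199 input reads, a ratio of 4.78 (exact 95% interval 4.70 to 4.87). The facing peak on the strand of Rmdn3 held 2470 IP and 737 input reads. Inside the span of Tenm4, a teneurin adhesion protein gene, the opposite-strand peak had 39557 IP and 14740 input reads, and the facing peak 7242 IP and 1116 input reads. The Riox2 peak had 17411 IP and 2363 input reads, against 1219 IP and 513 input reads in the facing peak. These 3 peaks thus had more reads than those facing them. In Lig3 and Evi5l the order was the other way, with 5167 and 3149 IP reads in the opposite-strand peaks and 13705 and 7702 IP reads in the facing ones.

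Of the 695 peaks on the strand of their gene, 269 (38.7%, 35.1 to 42.4%) overlapped the first 50 bases after a listed start. The midpoints of 444 (63.9%, 60.2 to 67.5%) lay within 500 bases of a listed start on either side. Measured from the edge of the gene span instead, the median distance over all 961 peaks was 479.5 bases, 490 of them (51.0%) lay within 500 bases, and the farthest lay 38820 bases away, since the rule scales with gene length. Of the 204 peaks on the strand of their gene that lay over 1000 bases from the edge of the span, 46 (22.5%, 17.0 to 28.9%) were within 500 bases of another listed start. Midpoints were most frequent 50 to 150 bases downstream of the start, and 80 of the 695 lay upstream of the nearest listed start, 27 of these by over 500 bases. The table of starts is not complete, as for Numa1 and Tnk2, whose peaks lay 258.5 and 155.5 bases from the edge of the span but at -35607.5 and -28899.5 bases from the nearest listed start, where a minus sign means upstream.

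**Figure D2:**
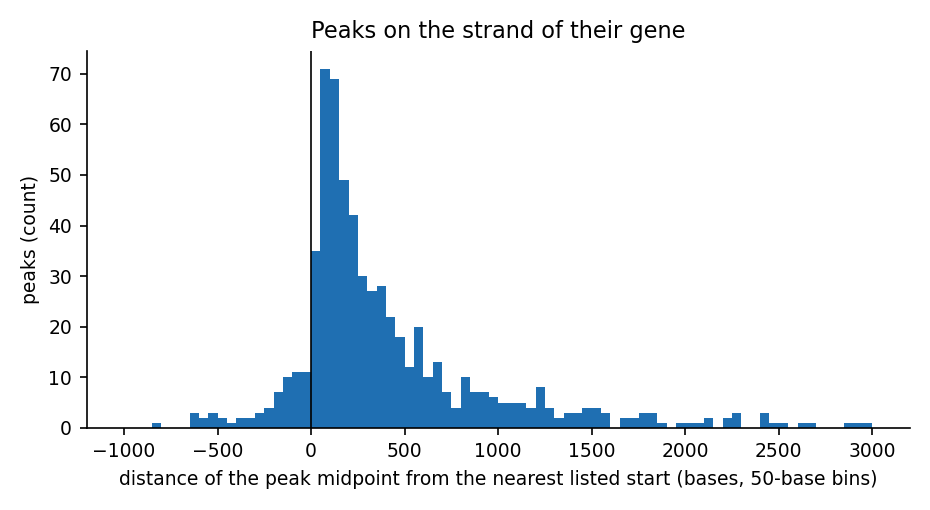
Distance of the midpoint of each of 630 peaks from the nearest listed RefSeq start of its gene (x axis, bases, 50-base bins, downstream positive), for peaks on the strand of their gene; y axis, number of peaks. A further 65 peaks lie outside the plotted range of -1000 to 3000 bases. Most midpoints sit in the first 500 bases downstream of a start, with the tallest bars between 50 and 150 bases.

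In the start sequences shown above, the motif stood at base 20 of the Rnd3 transcript, at base 21 in LOC102637806 and, as the first of 2 copies, at base 6 in Irx3, and Pcdh17 had 1 at base 31, past the letters shown. The remaining 9 starts had none in their first 50 bases. Bases before the listed start were not searched or put in capitals. Among those shown, Zfp804b has GGACC and LOC102637806 a further GGACT, both inside the peak. Kbtbd3, B3gnt2 and Spp1 have GGACC there too, outside their peaks. Over all 269 starts under a peak, 48 held GGAC followed by any base but G in the first 50 bases of the transcript strand (17.8%, exact 95% interval 13.5 to 23.0%; the other strand was not searched). The share was 15.7% of all 21263 listed starts of protein-coding genes. It was 14.1% of the 3244 starts of genes with a short 3' peak and no 5' peak of the kind described here. These comparison genes may hold other peaks, also 5' ones that the rule leaves out. The first base was A in 82 of the 269 starts (30.5%, 25.04 to 36.4%), in 37.4% of all starts and in 27.6% of the starts of the comparison genes. Median GC content of the first 50 bases was 66% under the peaks, 60% over all starts and 66% in the comparison genes. Peaks over a start with the motif had, in the authors' deposited table, a median log2 fold change of 2.34 (SD 0.9999 across 48 peaks), and those without it 2.30 (SD 0.918 across 221 peaks). With A as the first base it was 2.44 by the authors' deposited table (SD 0.936, 82 peaks), and with another base 2.23 (SD 0.924, 187 peaks). The exact 95% intervals of these medians overlapped, at 2.09 to 2.74 with the motif and 2.15 to 2.44 without it, and at 2.19 to 2.74 with A first and 2.10 to 2.35 with another base. Neither difference was tested. A motif match is a description of letters and does not show a methylated site.

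Of the 10 strongest peaks over a start, 4 rested on few input reads. Rnd3, a small GTPase of the cytoskeleton, had 272 IP and 27 input reads in its peak (chromosome 2, 51148855 to 51149104), a ratio of 10.1 (exact 95% interval 6.77 to 15.6). Its log2 value in the authors' deposited table, 5.202, was the second in this group after Zfp804b with 5.50, whose peak had 138 IP and 21 input reads. Olfr1318, an olfactory receptor gene, and Usp29, a ubiquitin protease, had 75 IP and 12 input reads and 193 IP and 39 input reads. The other 6 had over 100 input reads each. Gphn encodes gephyrin, a scaffold of inhibitory synapses, and its peak (chromosome 12, 78226379 to 78226778) had 3558 IP and 800 input reads, a ratio of 4.45 (4.12 to 4.81), and stood at 4.92 (log2) in the authors' deposited table. This peak, 9253.5 bases into the span, covers a later listed start of the gene, with its midpoint at -76.5 bases from that start. A peak of 54 IP and 10 input reads on the other strand overlaps the Gphn peak. Syt11, a synaptotagmin, likewise had its peak at a listed start within the span, but nearly all of the peak lay upstream of that start. Its midpoint was at -167.5 bases, so most of its reads may not come from that transcript. The Syt11 peak had 27598 IP and 5129 input reads and a value of 4.68 (log2) in the authors' deposited table. The kelch-domain gene Kbtbd3 had 4373 IP and 842 input reads, the glycosyltransferase gene B3gnt2 18789 and 3543, the protocadherin gene Pcdh17 830 and 128, and LOC102637806 8661 and 1362.

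The most abundant of the 961 peaks lay in Tbx3, a T-box factor of the developing hypothalamus (chromosome 5, 119671819 to 119672018). It had 155979 IP and 23705 input reads, a ratio of 6.58 (6.49 to 6.67), and its midpoint lay 1384.5 bases from the edge of the span. The strand of Tbx3 is not listed, nor is that of ND5 below, so it was not checked that these peaks lie at 5' ends. Spp1, which encodes the secreted phosphoprotein osteopontin, followed with 133565 IP and 44764 input reads, a ratio of 2.98 (2.95 to 3.02), in a peak that overlaps the first 50 bases of its transcript (chromosome 5, 104435118 to 104435317). Next was ND5, a subunit of respiratory complex I encoded by mitochondrial DNA, with 117879 IP and 100296 input reads and thus the lowest ratio of the leading 6, 1.18 (1.17 to 1.19). The opposite-strand peak in Rmdn3 came after it. Pcbp1, an RNA-binding protein gene, had 61216 IP and 22273 input reads, and Supt5, a transcription elongation factor gene, 59719 and 24928. In the authors' deposited table both had low log2 fold changes, 1.94 and 1.73, with ratios of 2.75 (2.71 to 2.79) and 2.40 (2.36 to 2.43), against 3.38 for Spp1. ND5, with its lower ratio, stood at 3.17 in the authors' deposited table. Among these peaks the deposited fold change did not follow the ratio of IP to input reads.

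**Figure D3:**
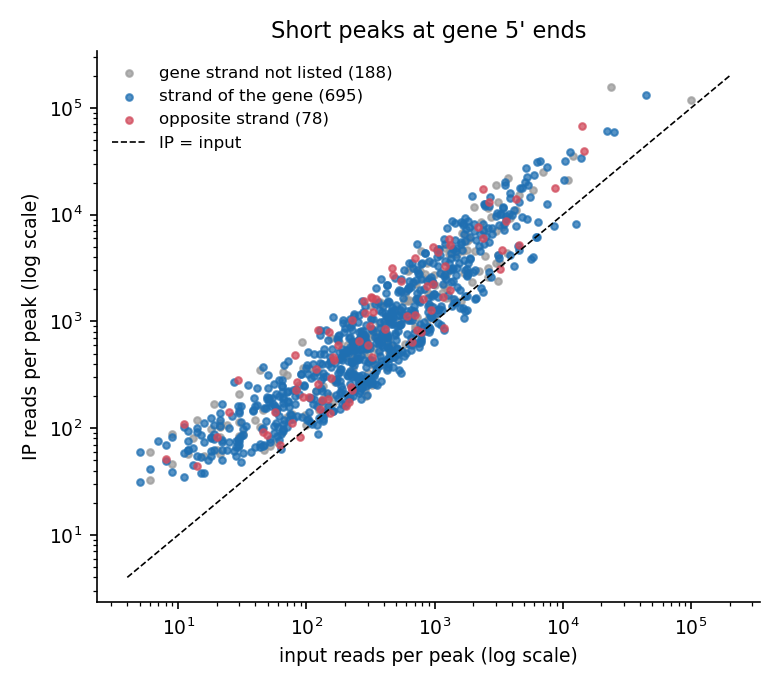
IP reads (y axis) against input reads (x axis) of the 961 peaks, both on log scales, coloured by whether the peak lies on the strand of its gene (695), on the opposite strand (78) or in a gene whose strand is not in the table of starts (188). The dashed line marks equal reads, and 105 peaks lie below it.

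By the deposited fold change, 4 of the 10 strongest peaks with at least 50 input reads lay on the strand opposite to their gene. They were in the spans of Qsox2, Mfsd14a, Riox2 and Cir1, at 5.51, 5.25, 5.10 and 4.98 in the authors' deposited table. Another, in P3h2, had 637 IP and 93 input reads and no listed gene strand, and a peak of 342 IP and 410 input reads on the other strand overlapped it. The highest on the strand of its gene was Sema3e, a semaphorin that guides axons and vessels, with 825 IP and 143 input reads, a ratio of 5.77 (4.83 to 6.94) and a value of 5.31 (log2) in the authors' deposited table. Its peak (chromosome 5, 14025876 to 14025975) was centred 649.5 bases from the start. Actr3, a subunit of the actin-nucleating Arp2/3 complex, had 12559 IP and 2464 input reads at 764 bases from the start, a ratio of 5.10 (4.88 to 5.32). Grik2, a kainate receptor subunit, had 895 IP and 220 input reads, and Pbdc1 9314 and 1727, at 6922.5 and 3359.5 bases from the edge of the span. Gphn completed these 10. Among all 961 peaks, 89 (9.26%) reached 4 on a log2 scale in the authors' deposited table, against 15.4% of short interior peaks, 15.8% of short 3' peaks and 19.8% of all peaks of the series. Of the 89, 13 were opposite-strand peaks.

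In the authors' deposited table the 6 lowest log2 fold changes were 0.32 for Ankrd17, 0.38 for Plxna2, 0.42 for Xpo1, 0.46 for Trim8, 0.50 for Tnk2 and 0.52 for Creb5. Plxna2 is a semaphorin receptor, Xpo1 the exporter of proteins from the nucleus, and Creb5 a transcription factor of the CREB family. All 6 had fewer IP than input reads. Ankrd17 and Plxna2 did not reach an adjusted p of 0.05 in that table, and Tnk2 and Xpo1 were only just below it. Ankrd17 had 828 IP and 1184 input reads, a ratio of 0.699 (0.639 to 0.765), and Xpo1 534 and 556, a ratio of 0.960 (0.851 to 1.08). Read ratios take no account of library depth, and a value under 1 is no sign of depletion. In all, 105 of the 961 peaks (10.9%, 9.02 to 13.1%) had fewer IP than input reads, beside 11.3% of all peaks.

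Whether the 5' peaks were weaker than other short peaks depended on the measure. The median log2 fold change in the authors' deposited table was 2.47 for the 961 short 5' peaks (SD 0.962 across peaks), 2.83 for 3355 short interior peaks (SD 0.964) and 2.82 for 4333 short 3' peaks, in the last 10% of the span (SD 0.959). By the authors' deposited table, a total of 699 of the 961 (72.7%) had a log2 fold change of at least 2, against 84.5% of interior and 84.6% of 3' short peaks and 87.2% of all peaks. By the plain ratio of IP to input reads the 5' peaks were instead the highest, with medians of 2.35 in 5' peaks (exact 95% interval of the median 2.25 to 2.45), 2.16 in interior peaks (2.10 to 2.25) and 1.98 in 3' peaks (1.94 to 2.04). The log2 fold change in the authors' deposited table exceeded the log2 read ratio by a median of 1.53 in the 5' peaks, 1.77 in the interior and 1.84 at the 3' end. For the 269 peaks that overlap a start this excess was 1.03, with a median of 2.34 for the log2 fold change from the authors' deposited table and of 2.499 for the read ratio. The normalization of the deposited fold change is not stated, so which of these orders holds cannot be told.

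**Figure D4:**
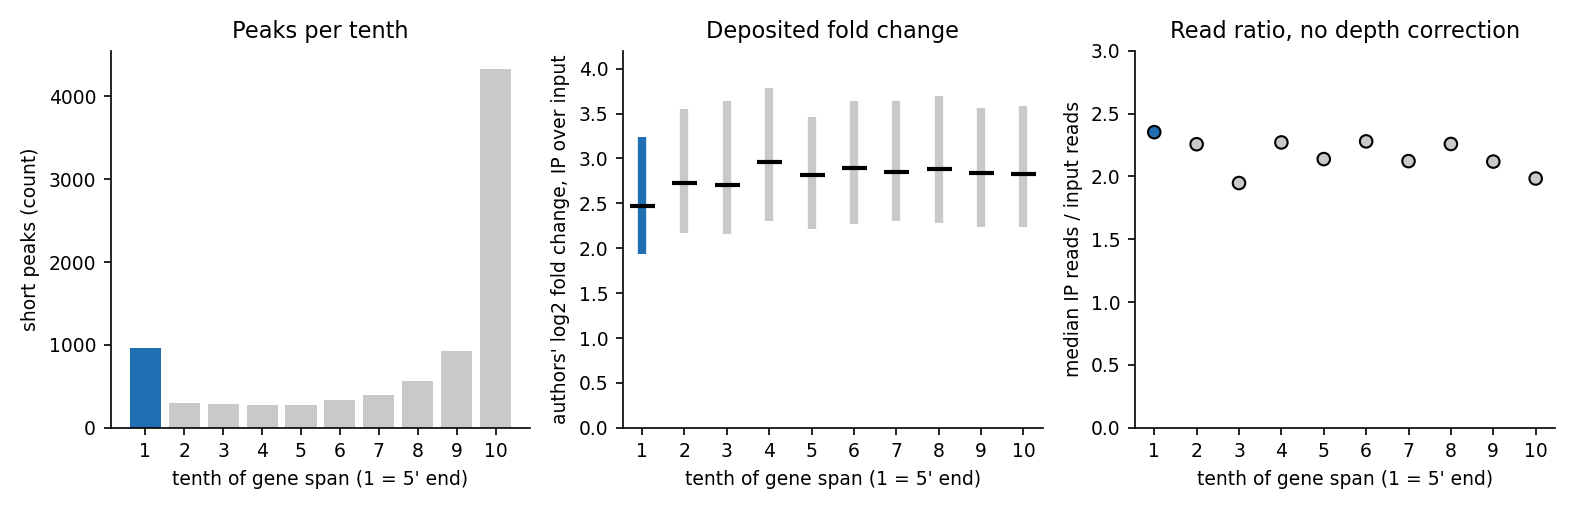
Short peaks by position in the gene span, in steps of 10% along the peak's strand, with the first step in blue. Left, number of peaks, 961 in the first step and 4333 in the last. Middle, log2 fold change of IP over input in the authors' deposited table, with median (black bar) and the range from the 25th to the 75th percentile of peaks (coloured bar). Right, median ratio of IP to input reads. The first step has the lowest median in the middle plot, 2.47, and the highest in the right one, 2.35.

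The same held at like input depth, except below 50 input reads. From 200 to below 500 input reads the median log2 fold change in the authors' deposited table was 2.16 in 252 short 5' peaks, 2.46 in 681 interior and 2.49 in 993 short 3' peaks, and the median read ratios were 1.94, 1.65 and 1.57 in that order. With 1000 or more input reads the medians in the authors' deposited table were 2.72, 2.85 and 2.80, and the read ratios 2.51, 2.13 and 1.96. Below 50 input reads the read ratios were 3.98 in 5' peaks, 4.13 in interior and 3.999 in 3' peaks, so there the 5' peaks were not the highest. The comparison also varied with width. The 5' peaks were narrower, with a median of 220 bases, against 275 in the interior and 300 at the 3' end. Above 100 and up to 200 bases the median log2 fold change in the authors' deposited table was 2.57 in both 5' and 3' peaks and 2.73 in interior ones. At 75 to 100 bases the medians in the authors' deposited table were 2.43 in 5' peaks, 2.61 in interior and 2.62 in 3' peaks. Above 200 and up to 400 bases they were 2.41, 2.84 and 2.81 in that order in the authors' deposited table, and above 400 bases 2.57, 3.01 and 3.02. Within the 5' peaks, the opposite-strand ones had a median of 3.07 on the log2 scale in the authors' deposited table, against 2.42 for those on the strand of their gene and 2.49 where the gene strand is not listed (SD 0.9995, 0.933 and 0.992 across peaks). By distance from the edge of the span, the medians in the authors' deposited table were 2.18 up to 100 bases, 2.55 between 500 and 1000 bases and 3.10 beyond 5000 bases, with 107, 170 and 60 peaks. Median input reads were lower in the farthest peaks, 207.5 against 425 in the nearest.

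In 242 genes a short 5' peak could be set beside a short peak in the last 10% of the span of the same gene and strand, taking the strongest of each end. The median of the 5' peaks was 2.34 and that of the 3' peaks 3.03, as log2 fold changes from the authors' deposited table. The median difference, 3' minus 5', was 0.49 in the authors' deposited table (exact 95% interval of the median 0.35 to 0.77, SD 1.32 across genes), and the 5' peak was the higher in 79 genes and the 3' peak in 163. By the log2 ratio of the reads of the same peaks the median difference was -0.0029 (-0.27 to 0.14), and each end was the higher in 121 genes. In 48 genes the 3' peak was the higher by the authors' deposited table and the 5' peak by the reads. Both values are descriptions of pooled reads. In 187 of the 242 genes the peaks lay on the strand of the gene, and there the 2 median differences were 0.49 and -0.012. Most other genes, among them Pik3c3, Tmem64 and Trim8 below, had no listed strand. In Rnf26 the peaks lay opposite to the gene, so that its 5' and 3' labels are swapped.

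**Figure D5:**
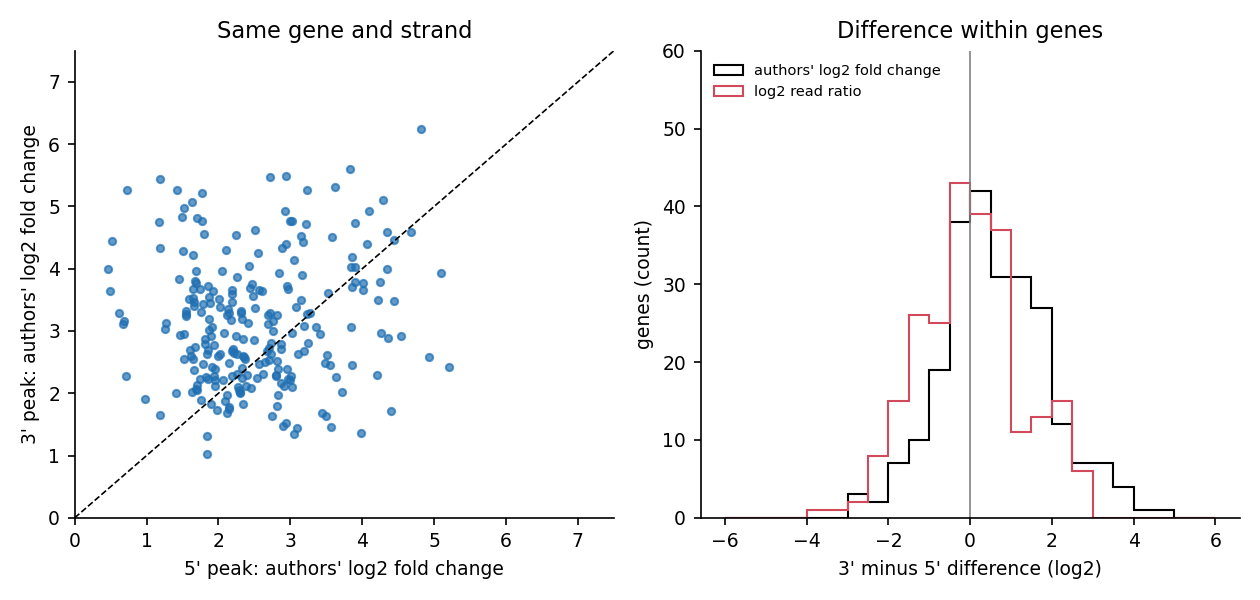
Short 5' and 3' peaks of 242 genes, in 187 of them on the strand of the gene. Left, log2 fold change in the authors' deposited table of the 3' peak (y axis) against the 5' peak (x axis), 1 point per gene, with the dashed line at equal values. Right, number of genes (y axis) by 3' minus 5' difference (x axis, log2) for the deposited fold change in black and for the read ratio in red. The black outline is shifted to the right of 0, with a median of 0.49, and the red one centres on 0.

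Where both peaks had at least 50 input reads, the 4 genes whose 5' peak led most by the authors' deposited table were Irf3, Gphn, Adgrb2 and Pik3c3. Irf3, a transcription factor of antiviral responses, came first, with -2.63 for 3' minus 5' in the authors' deposited table and -2.17 by the log2 read ratio. Its 5' peak had 8776 IP and 1829 input reads, and its 3' peak 3052 IP and 2859 input reads. Gphn had 3558 IP and 800 input reads at the 5' end and 426 and 498 at the 3' end, which gave -2.33 in the authors' deposited table and -2.38 by the log2 read ratio. Adgrb2, an adhesion G protein-coupled receptor gene, had 4677 and 1050 at the 5' end and 2282 and 1956 at the 3' end. In these 3 genes, and in Pik3c3, a phosphoinositide kinase, with 963 and 207 against 395 and 336, both measures put the 5' end higher. By the log2 read ratio the order was another one, led by Pcdh17 at -2.60, Gphn at -2.38 and Tmem64 at -2.25, ahead of Irf3. Pcdh17 had 830 IP and 128 input reads at the 5' end and 66 and 62 at the 3' end, and Tmem64 4866 and 1208 at the 5' end and 172 and 203 at the 3' end. The largest differences the other way were in Zbtb18, Ube2k, Creb5, Rgs7bp, Col25a1 and Trim8, at 4.55, 4.25, 3.92, 3.84, 3.58 and 3.54 for 3' minus 5' in the authors' deposited table. Zbtb18, a zinc finger repressor of the developing brain, had 115 IP and 106 input reads in its 5' peak, and 4147 IP and 718 input reads in its 3' peak. Ube2k, a ubiquitin-conjugating enzyme, had 102 and 60 in its 5' peak and 2797 and 431 in its 3' peak. For Creb5 the reads were 290 IP and 303 input at the 5' end and 23723 and 4882 at the 3' end.

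Counting each strand of a gene on its own, the 961 peaks fell on 853 gene strands, of which 761 had 1 such peak, 81 had 2 and 11 had 3 or more. On 235 of the 853 no other peak lay inside the span, and 343 had a peak of any width in the last 10% of the span. Of 108 pairs of neighbouring 5' peaks, 49 were at most 100 bases apart. Frem2, an extracellular matrix protein gene, had the most, with 6 peaks between 2167.5 and 6230 bases from the start, each with 61 to 149 IP and 12 to 38 input reads. Their log2 fold changes in the authors' deposited table ran from 3.36 to 3.90. Marchf4, a ubiquitin ligase gene, had 4 peaks of 100 to 161 IP and 14 to 31 input reads, and Pank1, whose enzyme takes the first step of coenzyme A synthesis, 4 of 220 to 629 IP and 64 to 351 input reads. The insulin receptor substrate gene Irs1 had 3, with 2813, 717 and 8274 IP reads and 740, 286 and 1655 input reads from the start inwards. The others with 3 were Antxr1, Bcr, Eml6, Gfod1, Gpr37, Slc39a12 and Slco5a1.

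Genes of progenitor biology, signalling and RNA control held 5' peaks in every list but 3. Of the 473 genes on 16 lists, 41 had a short 5' peak (8.67%), beside 3.84% of all protein-coding genes. Among genes with a short peak anywhere the shares were closer, 41 of the 227 listed genes (18.1%) and 842 of 5577 coding genes (15.1%), so nothing particular to the lists is read from them. Of their 44 peaks 31 lay on the strand of the gene, 12 had no listed gene strand and 1 was opposite. Among those with no listed gene strand are the peaks of Tbx3, Virma, Dusp4, Fzd2, Bcl9l, Wee1, Nsd1, Kmt2b and Nfib. In the authors' deposited table the 44 had a median log2 fold change of 2.18, and Tbx3 alone of them reached 4. The median over all 961 peaks was 2.47 there. None of 24 neuronal genes, 24 stress response genes and 18 microglial, blood and vascular genes had one. For the m6A machinery it was 4 of 26 genes, each with modest read numbers. The writer subunits Rbm15, Rbm15b and Virma had 498 IP and 136 input, 573 and 427, and 171 and 162 reads, and the reader Ythdf2 405 and 166. The identifier of the Rbm15b peak also covered peaks in another gene.

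In FGF, EGF and ERK signalling, which the culture medium feeds, 4 of 35 genes had a peak. Dusp6, an ERK phosphatase, had 4791 IP and 1393 input reads in a peak over its start, a ratio of 3.44 (3.24 to 3.66), and Etv1, an ETS factor, 4182 and 1106, at 3.15 and 3.61 (log2) in the authors' deposited table. Dusp4 had 1639 IP and 713 input reads, and the adaptor gene Gab1 1649 and 746 in one peak and 1273 and 1146 in another. A peak of 556 IP and 108 input reads on the other strand overlapped the first of the Gab1 peaks. Among Wnt genes it was 4 of 36, with Tle1, a corepressor, at 3005 IP and 722 input reads, and Fzd2, a receptor, at 1772 and 925. Bcl9l had 1068 and 443, with 54 and 39 in an overlapping peak on the other strand, and Axin2, a feedback inhibitor, 196 and 49. The Notch coactivators Maml2 and Maml3 had 2353 IP and 1349 input and 430 and 224 reads (2 of 30 genes), and the Hedgehog transducer Smo 920 and 1118 (1 of 16).

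Among 51 cell cycle regulators, 5 held a peak. The CDK inhibitor Cdkn1a had 2704 IP and 1795 input reads over its start, and E2f3, a factor of S-phase entry, 9571 and 4802. The phosphatase Cdc25a and the kinase Wee1 had 2 peaks each, with 537 and 225 and 1007 and 405 reads in Cdc25a and 857 and 364 and 640 and 435 in Wee1. E2f2 had 63 IP and 22 input reads. Of 61 histone and DNA modifiers 6 had a peak. Tet3, which oxidises methylcytosine, had the highest of these in the authors' deposited table, 3.63, with 942 IP and 228 input reads, followed by Nsd1 (733 and 344), Kmt2d (1439 and 502), Kmt2b (at 1.89), Arid1b (942 and 456) and the deacetylase Sirt1 (1712 and 1777). In mRNA decay and translation control 3 of 48 genes had one. Zfp36, which destabilises AU-rich messages, had 252 IP and 35 input reads in a peak centred 7 bases from its start, and Pum2 2073 and 2280. Tob2 had 858 and 327, but a peak on the other strand with 3795 IP and 952 input reads covered 62.9% of its length. Klf4 was the single immediate early gene of 25, with 17839 IP and 4603 input reads.

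Hypothalamic transcription factors had a 5' peak in 3 of 35 genes. Beside Tbx3, Irx3 was among them, with 1234 IP and 385 input reads in a peak 48.5 bases from the start that a peak of 2226 IP and 675 input reads on the other strand overlaps. Of 24 progenitor markers 2 had a peak, and that of Msi2, an RNA-binding protein gene, lay on the opposite strand with 5879 IP and 1285 input reads. Of 17 astrocyte and tanycyte genes 4 had a peak, namely the glutamate transporter gene Slc1a3 (2924 IP and 2676 input reads), the gap junction gene Gja1 (641 and 380) and the gliogenic factors Nfix (3139 and 1498) and Nfib (435 and 234). Oligodendrocyte lineage genes had 2 of 15, Sox8 (777 and 389) and Sox6 (58 and 32). A peak of 1342 IP and 553 input reads on the other strand overlapped that of Sox8. A short peak at any position was found in 13 of the 24 progenitor markers, 9 of the 17 astrocyte and tanycyte genes, 5 of the 24 neuronal genes and 0 of the 18 microglial, blood and vascular genes. A peak is a call of antibody enrichment on RNA, so these counts are no measure of cell type shares.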

How the data were processed

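m6A sequencing of Mettl14 knockout and control progenitors was deposited as 1 table of 21195 peaks. Tools in the submitters' processing notes were STAR 2.5.2a, Trimmomatic 0.32 and bcl2fastq 2.17.1.14, and builds were GRCm38.p6 and GRCh38.p13. Which program called peaks, which one counted, and on which libraries, is not given here. The deposited counts are whole reads per peak in 1 IP and 1 input column, per the file headers, and whether they are sums or means over libraries is unknown, as is the depth of each library. The deposited log2 fold change, p-values and score are the authors' own, taken as IP over input. The score was minus log2 of the adjusted p. The adjusted p served only in a stricter threshold and in the account of the weakest peaks.

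Computed here, with Python 3.11.15, pandas 2.3.3 and scipy 1.17.1, were the placement of peaks in RefSeq gene spans (GRCm38.p6, any overlap, all biotypes, 1-based coordinates), the strand and starts of genes from the RefSeq start table, and the read ratio (pseudocount 0.5 in medians and logs). Placement was tested on simulated peaks. Intervals are exact Clopper-Pearson, or exact binomial ones of a median, at 95%. They take the deposited values as whole reads and hold counting error alone, because no molecular identifier separates PCR copies. Named peaks were the 10 strongest with at least 50 input reads, the 6 most abundant, the 6 weakest, the 10 strongest over a start, the 6 and 4 extreme genes of the paired comparison, genes with 3 or more peaks, the peaks next to each limit and up to 4 peaks of each of 16 gene lists. Some listed genes are counted but not reported here by name. Other listed peaks and the opposite-strand examples were named after their values were seen. The peaks, lists and rules were chosen with earlier results of these data known. The planned comparison of knockout with control was not possible, as no column names a library, and 0 per-sample columns were left out. Alternatives for width, position, overlap, identifiers, reads, threshold, strand, pseudocount and averaging were tried.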

Additional observations from a re-analysis of the deposited data

How the results depend on the processing

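Over the other settings tried the number of short 5' peaks ran between 660 and 989, against 961, always within 1.5 times. Restricting the peaks to those within 1000 bases of the edge of the span gave, in the authors' deposited table, a median log2 fold change of 2.35, with a median distance of 276.5 bases, 74.2% within 500 bases and 67 peaks with fewer IP than input reads. At least 50 input reads gave 2.35 in the authors' deposited table and a read ratio of 2.14. The stricter threshold, adjusted p at most 0.001 and log2 fold change at least 2, which itself removes weak peaks, gave 2.87 in the authors' deposited table, a ratio of 2.83, a distance of 574.5 bases, 46.4% within 500 bases, 34 peaks with fewer IP than input reads and a 3' minus 5' difference of 0.22. Peaks of at most 500 bases gave a distance of 404 bases and 55.2%, and the first twentieth of the span 373 bases and 58.2%. With the log2 read ratio in place of the deposited fold change, an alternative chosen after seeing the data, the 3' minus 5' difference was -0.0029, and the cause was not tested. The other 42 of 59 values stayed within the interval of the reported value or, for counts, within 1.5 times of it. Leaving out a replicate was not possible, as no column holds a library. No paired analysis was possible because the columns carry no replicate number or genotype. Depth limits the peaks with few input reads most, and 124 of the 961 had under 50.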
